A study of Homo sapiens with 12 samples.

Results

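The 9 genes F3, ANXA2, S100A10, PLAU, PLAUR, SERPINB2, THBD, THBS1 and TFPI act in blood clotting or in the breakdown of clots, and several of them are known for their part in the bleeding disorder of acute promyelocytic leukemia. They were taken by gene symbol from the 20003 genes of the mRNA-seq files, and all 9 were found. NB4, an established line that carries the PML-RARα fusion, comes from acute promyelocytic leukemia. Kasumi-1 is an established acute myeloid leukemia line with the t(8;21) translocation and its AML1-ETO fusion gene. OGP46 is a kaurene diterpenoid derived from oridonin. The 4 groups of 3 samples each were NB4 cells in DMSO, NB4 cells incubated with 1 μM OGP46, Kasumi-1 cells in DMSO and Kasumi-1 cells incubated with 1 μM OGP46, all for 48 h by the labels, while a figure legend of the study states a longer time. Each disease is represented by 1 line, so a difference between the lines cannot be told apart from the individual origin of the lines, and no label says that the samples of a group came from separate cultures, so p-values measure the spread between these samples.

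Clotting starts when tissue factor, the product of F3, binds factor VIIa, and TFPI encodes the inhibitor of that complex. THBD encodes thrombomodulin, which turns thrombin into an activator of the anticoagulant protein C. Clots are dissolved by plasmin. PLAU encodes urokinase, a protease that makes plasmin, PLAUR its receptor, and SERPINB2 the inhibitor PAI-2. Annexin A2 (ANXA2) and S100A10 form a complex on the cell surface that gathers plasminogen and its activator, and this complex is abundant on promyelocytic leukemia cells. THBS1 encodes thrombospondin-1, a secreted glycoprotein of platelets and macrophages that binds CD36 and CD47.

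The summed FPKM (fragments scaled by exon length and by the mapped fragments of the sample) ranged from 248207 to 310262 and the genes at 1 FPKM or more from 9339 to 9746 per sample. Sequencing depth is unknown, so no counting error is given. RUNX1T1, the gene fused in AML1-ETO, was at 8.17 to 9.66 FPKM in Kasumi-1 samples and at 0 to 0.0762 FPKM in NB4 samples, and CD34 was at 91.4 to 108 FPKM in Kasumi-1 and 0.0149 to 1.31 FPKM in NB4, with the highest NB4 value in control 3. Of the markers chosen for NB4, STAB1 (9.09 to 15.5 FPKM in NB4 and at most 0.626 FPKM in Kasumi-1) separated the lines, and HGF did not. MPO, a defining enzyme of granulocytic precursors, was at 1510 FPKM or more in every sample. The 4 endothelial markers CDH5, KDR, TEK and EMCN summed to 0 in every NB4 sample and to at most 0.0689 FPKM in Kasumi-1, and the 4 fibroblast markers to at most 0.0165 FPKM in any sample. The 4 megakaryocyte and platelet markers summed to 0.612 to 1.20 FPKM in NB4 and 0.0975 to 0.298 FPKM in Kasumi-1, most of it ITGA2B, and the platelet gene PF4 was listed at 0 in all 12 samples. The 3 erythroid markers summed to at most 0.0863 FPKM. Of 3 lymphocyte markers, CD3D reached 13.5 to 34.6 FPKM in NB4, while CD3E and MS4A1 stayed at or below 0.131 FPKM in every sample.

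The promoters of 8 of the 9 genes were read from RefSeq (GRCh38.p14), as the 250 bases before the gene's start, 5′ to 3′ on the strand of the gene. THBD was not in the table. RefSeq and GENCODE place some starts differently. By the GENCODE coordinates given below, the regions of ANXA2, S100A10, PLAUR, PLAU, SERPINB2 and TFPI lie inside the gene. So does the end of the F3 region. F3 and S100A10 are shown because they separated the lines, ANXA2 because it is the partner of S100A10 and did not, and PLAUR and THBS1 because they rose with OGP46 in NB4 cells. Capitals mark matches, on either strand, to AP-1 (TGANTCA), SP/KLF (GGGCGG), EGR1 (GCGGGGGCG or GCGTGGGCG), the antioxidant response element (TGACNNNGC) and the TATA box (TATAAA). The regions are F3, chr1:94541760-94542009, minus strand, ANXA2, chr15:60397987-60398236, minus strand, S100A10, chr1:151993860-151994109, minus strand, PLAUR, chr19:43670170-43670419, minus strand, and THBS1, chr15:39580829-39581078, plus strand.
F3: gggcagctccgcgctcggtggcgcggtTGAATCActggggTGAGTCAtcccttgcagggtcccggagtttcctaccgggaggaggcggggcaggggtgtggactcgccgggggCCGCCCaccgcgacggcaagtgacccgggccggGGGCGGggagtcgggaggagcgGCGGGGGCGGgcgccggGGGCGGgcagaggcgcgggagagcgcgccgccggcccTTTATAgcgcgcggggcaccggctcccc
ANXA2: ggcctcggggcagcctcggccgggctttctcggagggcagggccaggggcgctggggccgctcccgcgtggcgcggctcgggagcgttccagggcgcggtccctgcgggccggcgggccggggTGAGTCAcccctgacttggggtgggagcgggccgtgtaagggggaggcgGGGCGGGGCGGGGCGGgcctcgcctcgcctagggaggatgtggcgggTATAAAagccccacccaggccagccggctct
S100A10: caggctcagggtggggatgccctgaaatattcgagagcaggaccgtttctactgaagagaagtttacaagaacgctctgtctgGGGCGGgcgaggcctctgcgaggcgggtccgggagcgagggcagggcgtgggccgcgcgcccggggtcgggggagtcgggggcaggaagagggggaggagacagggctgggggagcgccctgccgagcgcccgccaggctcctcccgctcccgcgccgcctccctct
PLAUR: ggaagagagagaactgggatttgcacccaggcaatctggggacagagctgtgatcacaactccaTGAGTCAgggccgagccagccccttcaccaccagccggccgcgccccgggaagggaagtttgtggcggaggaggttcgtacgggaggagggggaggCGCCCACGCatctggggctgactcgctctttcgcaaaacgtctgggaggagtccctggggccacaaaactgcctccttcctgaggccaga
THBS1: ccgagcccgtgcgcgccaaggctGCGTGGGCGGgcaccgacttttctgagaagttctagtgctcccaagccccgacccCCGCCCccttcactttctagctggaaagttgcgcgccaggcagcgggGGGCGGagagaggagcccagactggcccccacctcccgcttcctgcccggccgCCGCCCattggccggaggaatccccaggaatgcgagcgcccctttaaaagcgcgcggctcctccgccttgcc

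The F3 promoter held 2 AP-1 matches, beginning at positions -223 and -210 counted from the start, 4 SP/KLF matches and a TATA box beginning at -28, which reads TTTATA on the gene's strand. The ANXA2 promoter held 1 AP-1 match, 3 SP/KLF matches that each share a base with the next, and a TATA box. S100A10 had 1 SP/KLF match and none of the others. PLAUR had 1 AP-1 match beginning at -186 and 1 EGR1 match at -90, and THBS1 had 4 SP/KLF matches and 1 EGR1 match. In F3 and THBS1 the EGR1 match overlaps an SP/KLF match. Over 27305 RefSeq promoters of the same length, 6.6% held the AP-1 letters, 42.3% SP/KLF, 5.3% EGR1, 11% the antioxidant response element and 11.1% the TATA box. The CG dinucleotides, sites of DNA methylation, numbered 34 in F3, 28 in ANXA2, 24 in S100A10, 24 in THBS1 and 13 in PLAUR. They numbered 4 in PLAU, 2 in TFPI and 0 in SERPINB2, against a median of 11 over all promoters. Matches are a description of letters and not of bound sites.

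In control cells, F3, which encodes the starter of clotting, and S100A10 were far higher in NB4 than in Kasumi-1 cells, and the inhibitor TFPI was listed at 0 in NB4. F3 (chr1:94529225-94541800, GRCh38, minus strand) was at 10.3, 8.19 and 9.25 FPKM in NB4 controls 1 to 3 and at 0.478, 0.561 and 0.266 FPKM in Kasumi-1 controls. The groups lie far apart, at 9.25 ± 1.06 and 0.435 ± 0.152 FPKM (SD, n = 3 each), and the log2 difference of FPKM + 0.1 was 4.16 (SE 0.21, limma, adjusted p = 3.2e-07). TFPI (chr2:187464230-187565760, minus strand) was listed at 0 in all 6 NB4 samples and at 0.584, 0.665 and 0.762 FPKM in Kasumi-1 controls, so no fold change is given (limma, adjusted p = 1.1e-06). THBD (chr20:23045633-23049741, minus strand) was at 5.14, 5.47 and 3.68 FPKM in NB4 controls and at 0.0382, 0.146 and 0.0146 FPKM in Kasumi-1 controls, a log2 difference of 4.93 (SE 0.29, limma, adjusted p = 6.6e-07). The size of the THBD difference depends on the 0.1 added to FPKM, as it was 2.42 with 1 added and 6.37 with 0.01. The clotting initiator F3 and the anticoagulant THBD therefore stood on the same side in this comparison, and TFPI on the other.

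S100A10 (chr1:151982915-151994390, minus strand) had the widest gap of the set. It was at 47.7, 38.9 and 49.2 FPKM in NB4 controls and at 0.088, 0.451 and 0.0497 FPKM in Kasumi-1 controls, a log2 difference of 7.50 (SE 0.41, limma, adjusted p = 4.6e-07). Its partner ANXA2 (chr15:60347134-60402883, minus strand) was expressed in both lines, at 32.2, 18.6 and 27.1 FPKM in NB4 controls and at 18.7, 20.7 and 18.6 FPKM in Kasumi-1 controls. The ANXA2 groups overlapped, with a log2 difference of 0.39 (SE 0.17, limma, adjusted p = 0.067). Per length of exon, ANXA2 stood at 0.478 to 0.676 times the level of S100A10 in NB4 controls and at 45.8 to 374 times in Kasumi-1 controls. Both genes of the complex were thus detected together at the mRNA level in NB4, while Kasumi-1 had ANXA2 mRNA with S100A10 near 0. ANXA2 has processed pseudogenes (ANXA2P1, ANXA2P2 and ANXA2P3) that share its sequence, so its values are uncertain where reads were shared among copies.

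The urokinase gene PLAU stood the other way. PLAU (chr10:73909177-73917497, plus strand) was lower in NB4 controls, at 5.26, 3.99 and 4.8 FPKM, than in Kasumi-1 controls, at 9.97, 12.1 and 10.7 FPKM, a log2 difference of -1.21 (SE 0.12, limma, adjusted p = 2.1e-05). PLAUR (chr19:43646095-43670547, minus strand) was at 1.7, 1.44 and 1.55 FPKM in NB4 controls and 1.04, 0.965 and 1.08 FPKM in Kasumi-1 controls. The PLAUR groups did not overlap, but the log2 difference of 0.56 (SE 0.13, limma, adjusted p = 0.0038) lay under the size of 0.58 that a call needed, and it passed that size under TPM scaling, median centring, quantile normalization and a pseudocount of 0.01 (0.60 to 0.84). The PLAU level was 2.77 to 3.10 times that of PLAUR in NB4 controls and 9.59 to 12.6 times in Kasumi-1 controls. PLAU is overlapped on the other strand by C10orf55, which was at 0.0178 to 0.262 FPKM.

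THBS1 (chr15:39581079-39599466, plus strand) was at 4.26, 0.0928 and 1.96 FPKM in NB4 controls and at 0.0052, 0.0291 and 0 FPKM in Kasumi-1 controls, a log2 difference of 3.44 (SE 0.94, limma, adjusted p = 0.0087). All 3 NB4 values lay above the Kasumi-1 values, but NB4 control 2 was close to them. SERPINB2 (chr18:63871692-63903890, plus strand) was near 0 throughout, at 0.0782, 0.0216 and 0.176 FPKM in NB4 controls and 0 in the 3 Kasumi-1 controls, and was too low to be tested. It overlaps SERPINB10 on the same strand, which was at 0.0342 to 0.777 FPKM, so even these low values are uncertain. Of the 8 genes tested in controls, 4 were called higher in NB4 (F3, S100A10, THBD and THBS1) and 2 lower (PLAU and TFPI), where a call needs an adjusted p below 0.05 and a log2 difference of at least 0.58 in size. THBD and THBS1 averaged below 0.1 FPKM in Kasumi-1 controls, and TFPI was at 0 in NB4. These genes passed the filter only through the line where they were high, so the direction of their calls was fixed beforehand. Over all 12302 genes tested, 22.7% were called higher and 29.7% lower in NB4, so calls in either direction were common.

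**Figure D1:**
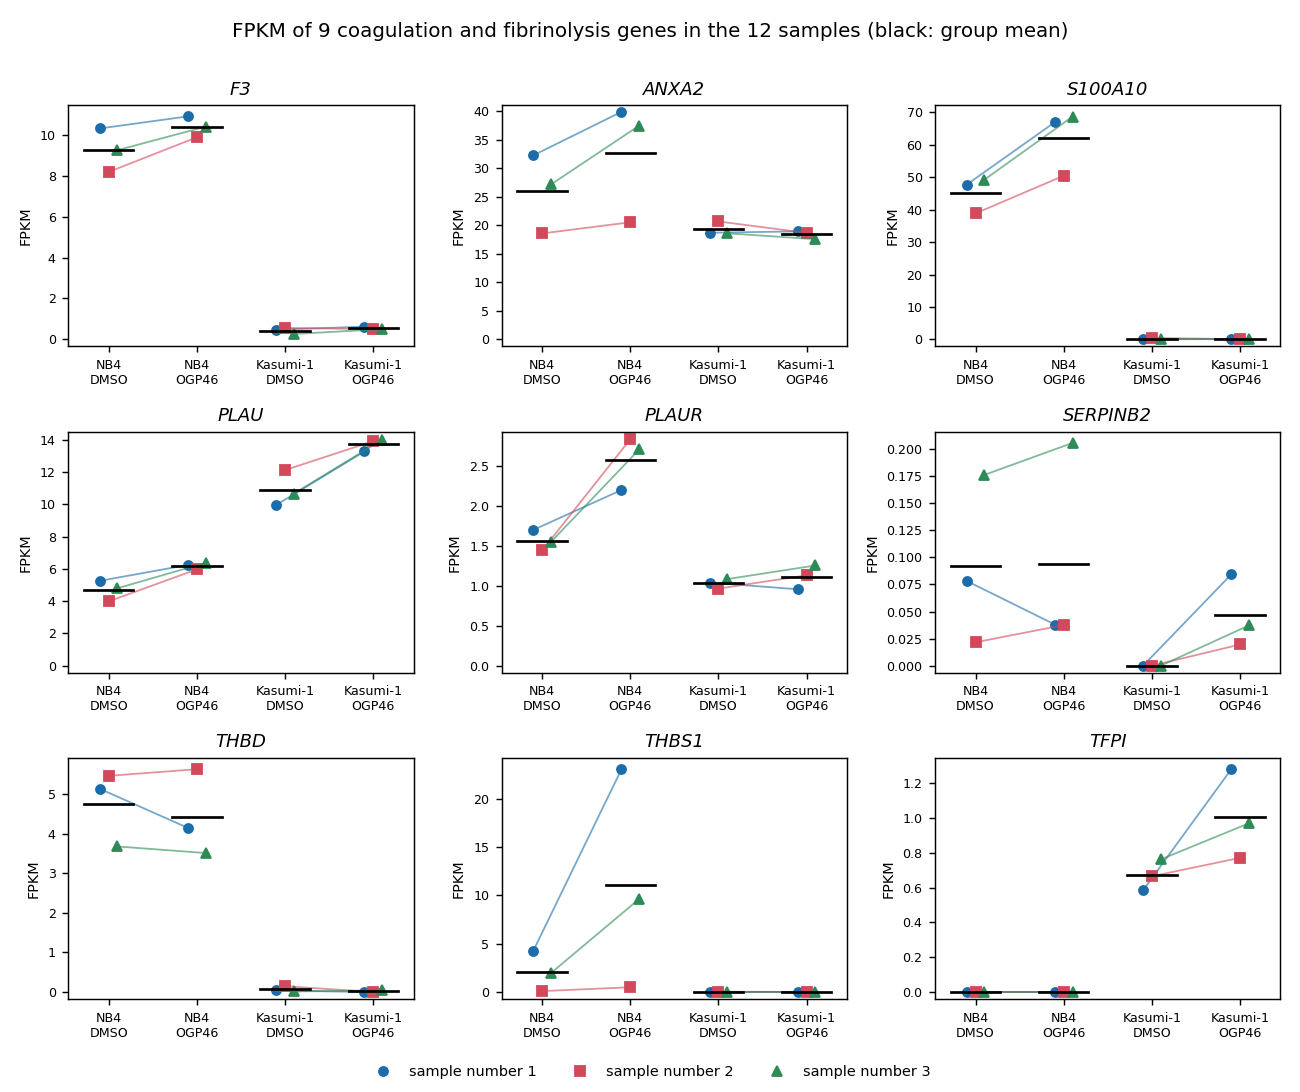
FPKM of the 9 genes in the 12 samples, with 1 panel per gene and a linear axis from 0, points for the samples, lines joining same-numbered DMSO and OGP46 samples, and black bars for group means (n = 3). F3, S100A10, THBD and THBS1 lie near 0 in Kasumi-1, TFPI is at 0 in NB4, and ANXA2 and PLAUR are expressed in both lines.

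In Kasumi-1 control 2, the S100A10 and THBD values were the highest of the 6 Kasumi-1 samples. They amounted to 0.996% and 3.07% of the mean NB4 control level, against 0.110% to 0.348% for S100A10 in the other Kasumi-1 samples. THBS1 was too low in Kasumi-1 to be ranked. Other genes higher in NB4 differed, as LYZ also peaked in control 2 (15.1%), CD3D in control 3 (4.07%), and F3 and STAB1 in OGP46 sample 1 (6.73% and 6.79%). CD36 and F2RL3 stayed below 0.1 FPKM in Kasumi-1. Without control 2, the S100A10 difference between the lines was 8.07 on the log2 scale. The part of RNA from the other line in these low values was not tested.

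**Figure D2:**
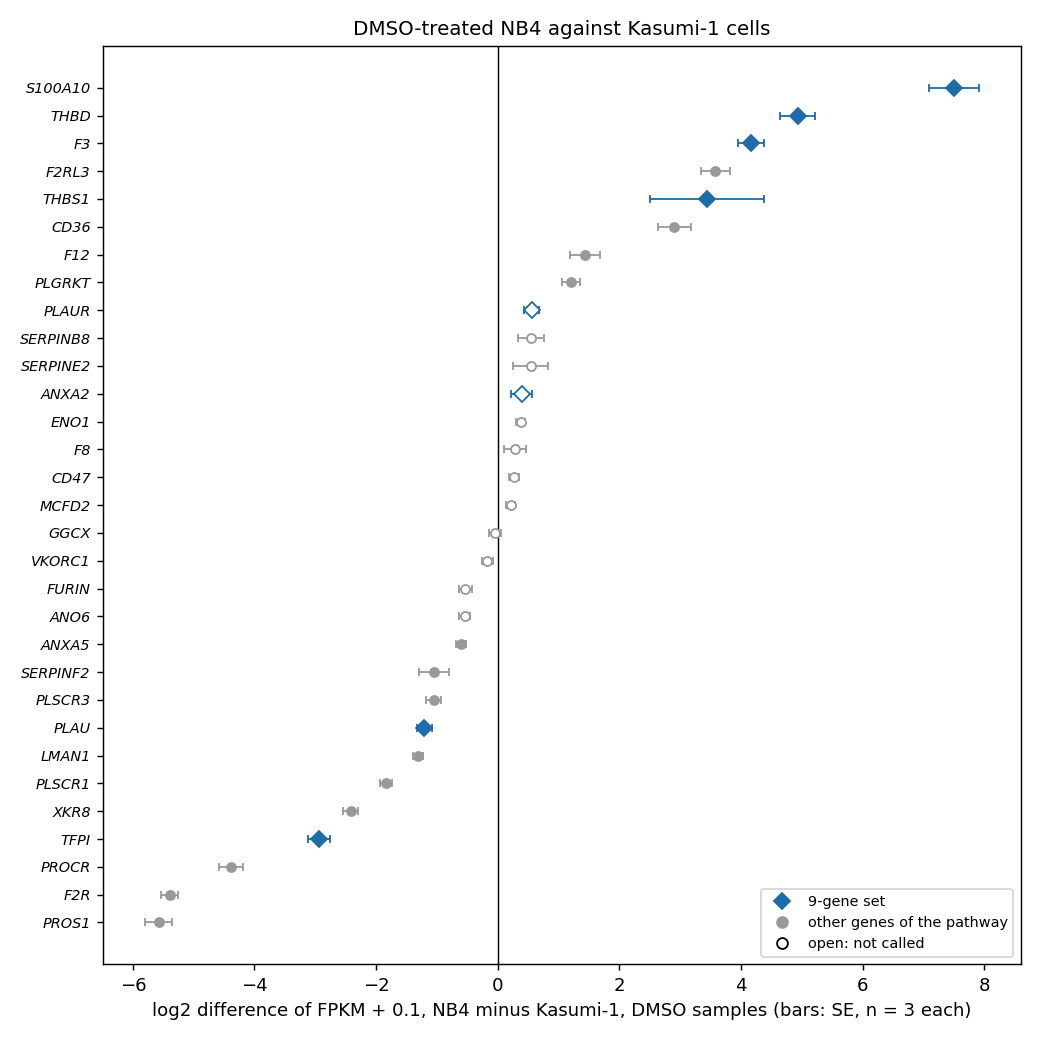
Log2 difference of FPKM + 0.1 between NB4 and Kasumi-1 controls for the 8 tested genes of the set (blue diamonds) and the tested genes of the pathway lists (grey circles), with bars for the SE and n = 3 per line. S100A10 is at 7.50 and PROS1 at -5.58, and open symbols mark genes that were not called.

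The wider pathway was described from 7 lists with 48 genes, of which most were too low to be tested. Of 15 coagulation factors only F8 and F12 were tested, and the fibrinogen genes FGA, FGB and FGG were listed at 0 in every sample. F12, the contact factor, was higher in NB4 controls by 1.43 on the log2 scale (limma, adjusted p = 0.000675). The thrombin receptors split, as F2R (PAR1) was at 0.155 to 0.239 FPKM in NB4 controls and 11.7 to 13.8 FPKM in Kasumi-1 controls, while F2RL3 (PAR4) was at 0.993 to 1.66 FPKM in NB4 controls and at most 0.0262 FPKM in Kasumi-1 controls. Their log2 differences were -5.40 and 3.58 (limma, adjusted p = 4.5e-08 and 1.3e-06). The list of anticoagulants, which leaves out TFPI and the higher THBD described above, had 3 tested genes, all lower in NB4, with log2 differences of -5.58 for PROS1 (protein S), -4.38 for PROCR (the protein C receptor) and -0.60 for ANXA5 (limma, adjusted p = 9.4e-08, 1.6e-07 and 9.7e-05). The list's median of -4.38 compares with -0.10 over all genes tested.

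Of 5 tested genes of the plasminogen system, 1 was higher in NB4, the plasminogen receptor PLGRKT by 1.21 (limma, adjusted p = 8.5e-05), and 1 lower, SERPINF2 (the plasmin inhibitor) by -1.05 (limma, adjusted p = 0.0045), with a list median of 0.54. SERPINF2 was low, at 0.0187 to 0.0929 FPKM in NB4 controls and 0.183 to 0.294 FPKM in Kasumi-1 controls. The size of its difference therefore depends on the 0.1 added to FPKM. LMAN1, which carries factors V and VIII out of the endoplasmic reticulum, was the only called gene among the 5 tested for maturation and export, with a log2 difference of -1.31 (limma, adjusted p = 1.3e-06) and a list median of -0.17. Among the genes listed as phospholipid scramblases, 3 of 4 were lower in NB4, with log2 differences of -2.42 for XKR8, -1.84 for PLSCR1 and -1.05 for PLSCR3 (limma, adjusted p = 3.0e-07, 3.2e-07 and 6.1e-05). ANO6 was not called. The thrombospondin receptor CD36 was at 0.488 to 1.07 FPKM in NB4 controls and at most 0.0298 FPKM in Kasumi-1 controls, a log2 difference of 2.90 (limma, adjusted p = 1.3e-05), and CD47, expressed in both lines, was not called. The lists were chosen with earlier results of these data known.

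The next comparison asked how OGP46, studied as an inducer of differentiation, changed these genes in NB4 cells. With OGP46, THBS1 rose in each of the 3 same-numbered NB4 pairs, a change called when the samples were paired. PLAUR was called with and without pairing, but not under other scalings. The other tested genes of the set were not called. THBS1 went from 4.26 to 23.1 FPKM in pair 1, from 0.0928 to 0.491 FPKM in pair 2 and from 1.96 to 9.62 FPKM in pair 3. The within-pair FPKM ratios were 5.41, 5.29 and 4.92, while the level itself differed 45.9-fold among the controls and 47.0-fold among the OGP46 samples. The groups therefore overlapped, and the log2 difference of 2.09 was not called without pairing (SE 1.46, limma, adjusted p = 0.36). With the replicate block, which compares same-numbered samples, the SE was 0.15 and THBS1 was called (limma, adjusted p = 7.4e-06). It stayed called with the block when any 1 pair was left out.

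The control spread of THBS1 was unusual among NB4 genes. Of 9381 genes that averaged 1 FPKM or more in NB4 controls without a 0, 1 had a larger ratio of the highest to the lowest control, the readthrough gene ZNF660-ZNF197, and the median ratio of all was 1.17. The genes whose log2 pattern was most like THBS1, over the 12 samples after each line's mean was subtracted, were JAML (Pearson r = 0.99), SNX20 (0.98) and ANXA2 (0.98), out of 9943 genes searched. JAML was at 3.17, 0.542 and 1.90 FPKM in NB4 controls 1 to 3 and at 6.70, 1.38 and 4.27 FPKM in the OGP46 samples. As THBS1 was near 0 in Kasumi-1, these values of r rest on the 6 NB4 samples, which share the order of sample numbers 1, 3 and 2 within each group.

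**Figure D3:**
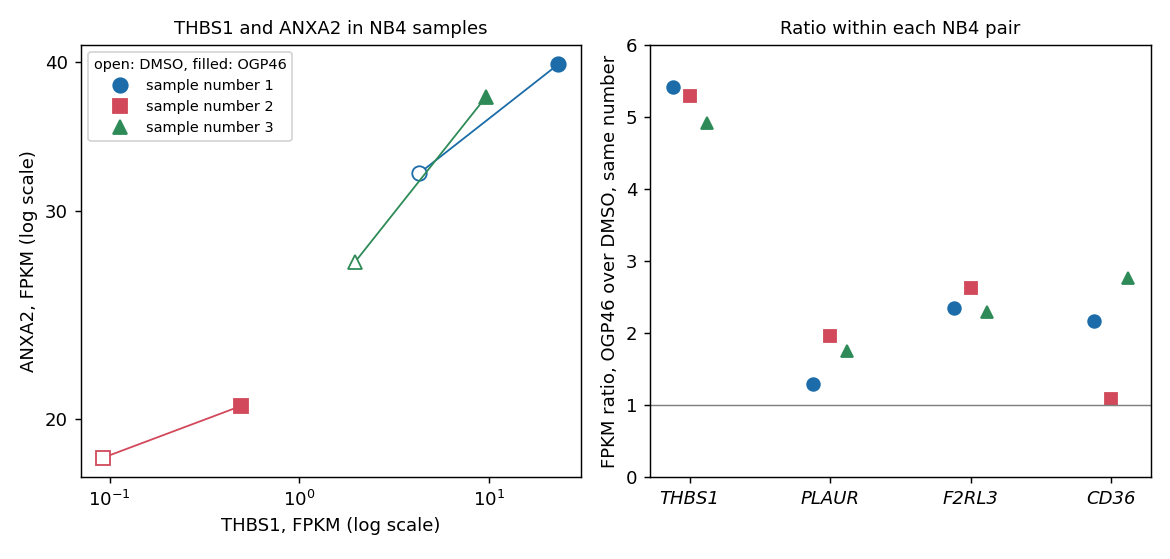
Left, THBS1 against ANXA2 in the 6 NB4 samples (FPKM, log axes), open symbols for DMSO, filled for OGP46 and lines joining same-numbered samples. Right, FPKM ratio of OGP46 over DMSO in each NB4 pair for 4 genes, with THBS1 between 4.92 and 5.41 and the line at 1 for no difference.

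PLAUR was the only gene of the set called in NB4 without pairing, 1 of 7 tested, where 1.45% of the 11750 genes tested were called higher and 0.111% lower. It was at 1.7, 1.44 and 1.55 FPKM in controls and 2.2, 2.83 and 2.71 FPKM with OGP46, a log2 difference of 0.68 (SE 0.14, limma, adjusted p = 0.046). All OGP46 samples lay above all controls, and the pair ratios were 1.29, 1.97 and 1.75. The call ended when any 1 of the 6 samples was left out, and under every other scaling. With the replicate block 2 genes were called, PLAUR and THBS1 (limma, adjusted p = 0.0052 and 7.4e-06), against 5.06% of genes called higher and 1.15% lower. With the block and median centring, TPM scaling or quantile normalization, the PLAUR difference was 0.46 to 0.56, under the size needed, and THBS1 remained called at 1.87 to 1.98. With the block and no filter on low values, THBS1 was called (limma, adjusted p = 0.039) and PLAUR was not (adjusted p = 0.082).

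All genes together shifted in NB4, as the median log2 difference of the genes tested was 0.18, and this shift bears on the smaller differences. S100A10 was at 47.7, 38.9 and 49.2 FPKM in controls 1 to 3 and at 67.0, 50.5 and 68.7 FPKM in the same-numbered OGP46 samples, with ratios of 1.40, 1.30 and 1.40, and the groups did not overlap. Its log2 difference was 0.45, or 0.27 above the median of all genes, with an adjusted p of 0.095 without pairing and 0.0027 with the block (limma), and it lay under the size for a call in both. ANXA2 was at 39.9, 20.5 and 37.4 FPKM with OGP46, ratios of 1.24, 1.11 and 1.38, and its log2 difference was 0.30 (limma, adjusted p = 0.47, and 0.031 with the block). In each pair the S100A10 ratio exceeded that of ANXA2, and ANXA2 stood at 0.407 to 0.595 times the S100A10 level. PLAU was at 6.25, 5.98 and 6.39 FPKM, all above the controls, with a log2 difference of 0.41 (limma, adjusted p = 0.085, and 0.017 with the block).

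F3 and THBD were not called. F3 was at 10.9, 9.88 and 10.4 FPKM with OGP46, a log2 difference of 0.17 (limma, adjusted p = 0.30) that equals the median of all genes to within 0.01, and the sign turned negative under median centring (-0.05) and quantile normalization (-0.01). THBD was at 4.15, 5.64 and 3.52 FPKM, a log2 difference of -0.11 (limma, adjusted p = 0.73), or -0.29 from the median of all genes. SERPINB2 was at 0.038, 0.0375 and 0.206 FPKM, and TFPI remained listed at 0. S100A10, PLAU and PLAUR had all OGP46 samples above all controls, as had 32.7% of all genes tested in NB4.

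**Figure D4:**
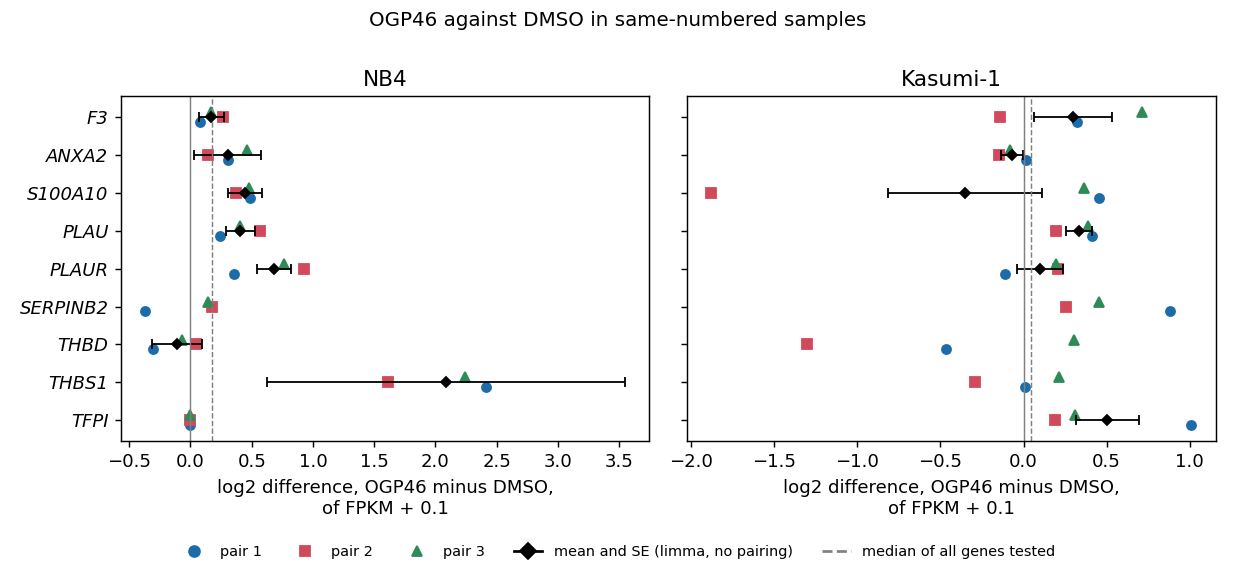
Log2 difference of FPKM + 0.1 between OGP46 and DMSO for the 9 genes, with coloured symbols for the same-numbered pairs, black diamonds and bars for the limma estimate and its SE without pairing where the gene was tested, and a dashed line at the median of all genes (0.18 in NB4 and 0.05 in Kasumi-1). THBS1 in NB4 has pairs between 1.62 and 2.41 and an SE of 1.46.

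Of the other genes of the pathway in NB4, F2RL3 (PAR4) rose from 1.66, 1.02 and 0.993 FPKM to 3.89, 2.67 and 2.28 FPKM, a log2 difference of 1.20 (SE 0.25, limma, adjusted p = 0.047, and 9.3e-05 with the block). With the block, CD36 was called too. It rose by 0.83 on the log2 scale (limma, adjusted p = 0.28 without and 0.018 with the block), with pair ratios of 2.16, 1.08 and 2.76. Without the filter, CD36 was not called with the block (limma, adjusted p = 0.14), and F2RL3 was called with the block (0.039) but not without it (0.093). The unpaired F2RL3 call also ended under TPM scaling, median centring or quantile normalization. The lists' medians were 0.11 for the 2 tested coagulation factors, 0.67 for the 2 receptors, 0.52 for the 3 anticoagulants, 0.36 for 4 tested genes of the plasminogen system, 0.15 for 5 maturation genes, 0.37 for 4 scramblases and 0.58 for the 2 tested thrombospondin receptors, against 0.18 over all genes. The genes of highest level in the lists without a call were ANXA5, PROC and PROCR, with log2 differences of 0.52, 0.64 and -0.18, VKORC1, MCFD2 and LMAN1 with 0.03, 0.15 and 0.19, ANO6, PLSCR1 and PLSCR3 with 0.41, 0.44 and 0.34, ENO1, SERPINB8 and PLGRKT with 0.08, 0.36 and 0.37, and F12 and F8 with 0.02 and 0.20.

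Some monocyte and macrophage markers rose in the same NB4 samples. Of 6 markers, 5 were tested, and CD68 rose without pairing, joined by CD14 and CSF1R with the block (limma). The unpaired CD68 call ended under TPM scaling, median centring or quantile normalization. LYZ, by far the most abundant of them, was at 391, 270 and 294 FPKM in controls and 314, 262 and 367 FPKM with OGP46, and was not called. The sum of all 6 overlapped, at 284 to 405 FPKM in controls and 281 to 387 FPKM with OGP46. Without LYZ the sum was 12.3 to 13.8 FPKM in controls and 18.5 to 22.0 FPKM with OGP46, with VCAN at or below 0.0111 FPKM. In pair 2, CD14 went from 0.0622 to 0.342 FPKM, the lowest of the pairs as for THBS1. Of the lymphocyte markers, CD3D was not called without pairing (0.72, limma, adjusted p = 0.072) and rose with the block (adjusted p = 0.00022), from 16.1, 13.5 and 20.4 FPKM in controls 1 to 3 to 25.9, 22.5 and 34.6 FPKM with OGP46. The 4 granulocytic markers MPO, PRTN3, ELANE and AZU1 had log2 differences below 0, and 3 of them fell with the block. ELANE was at 0.504, 3.30 and 14.5 FPKM in NB4 controls, 0.321, 0.430 and 1.39 FPKM with OGP46, and 1352 to 1717 FPKM in Kasumi-1 controls. Kasumi-1 signal in NB4 samples was estimated as the median of the RUNX1T1, POU4F1 and TRH ratios to the Kasumi-1 control mean. It was 0%, 0.370% and 0.895% in NB4 controls 1 to 3 and at most 0.0717% with OGP46. The markers did not agree. POU4F1 was at 0.408 to 0.788 FPKM in NB4 controls and 0.395 to 0.819 FPKM with OGP46, against a Kasumi-1 control mean of 7.27 FPKM. TRH was listed at 0 in every NB4 sample but control 3. The part of Kasumi-1 signal in the fall of ELANE was not tested. The part of the marker changes in the values of THBS1, PLAUR, F2RL3 and CD36 was not tested, and in bulk RNA a change in the share of cells of one state cannot be told apart from a change in RNA per cell.

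In Kasumi-1 cells the same question gave 0 calls among 6 tested genes of the set, without pairing and with the block (limma). Of these 6, 2 had an unadjusted p below 0.05, PLAU and TFPI. So had 1852 of all 11835 genes tested without pairing and 2711 with the block. Over the 11835 genes tested, 0.0169% were called in each direction without pairing, and 0.27% higher and 0.346% lower with the block. PLAU was at 9.97, 12.1 and 10.7 FPKM in controls and 13.3, 13.9 and 14.0 FPKM with OGP46, with pair ratios of 1.33, 1.15 and 1.31 and no overlap. Its log2 difference was 0.33 (SE 0.08, limma, adjusted p = 0.12, and 0.031 with the block), under the size for a call. TFPI was at 1.28, 0.771 and 0.969 FPKM with OGP46, all above the controls, a log2 difference of 0.50 (SE 0.19, limma, adjusted p = 0.25, and 0.13 with the block). With the block and without pair 3, TFPI was called at 0.60.

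The remaining genes were not called in Kasumi-1. F3 stayed low at 0.622, 0.500 and 0.500 FPKM with OGP46 (log2 difference 0.30, limma, adjusted p = 0.56), and ANXA2 was at 18.9, 18.7 and 17.6 FPKM (-0.07, limma, adjusted p = 0.64). PLAUR was at 0.957, 1.13 and 1.25 FPKM (0.10, limma, adjusted p = 0.77). S100A10 was at 0.157, 0.0498 and 0.0925 FPKM (-0.35, limma, adjusted p = 0.75), where pairs 1 and 3 were higher and pair 2 lower, and without control 2 the gene fell below the filter. THBD was listed at 0 in 2 OGP46 samples and at 0.0416 FPKM in the third, THBS1 was at or below 0.0158 FPKM, and SERPINB2 was at 0.0843, 0.0196 and 0.0372 FPKM, against 0 in the controls. PLAU and TFPI had all OGP46 samples above all controls, as had 17.4% of all genes tested. SERPINB2 was too low to be tested and is outside that share. Among the pathway lists, SERPINB8 alone was called, with the block, rising by 0.61 on the log2 scale (limma, adjusted p = 0.073 without and 0.019 with the block), from 2.35 to 2.96 FPKM in controls to 3.75 to 4.50 FPKM with OGP46. Without the filter this call was lost (limma, adjusted p = 0.19). The lists' medians were 0.08, -0.28, 0.16, -0.07, 0.03, 0.10 and 0.26 in the order given for NB4, against 0.05 over all genes.

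Whether OGP46 acted differently in the 2 lines was tested as the interaction of line and treatment. Without pairing, 0 of 8 tested genes of the set were called, as were 0 of all 12309 genes (limma), and 1 of the set, PLAUR, and 1348 of all genes had an unadjusted p below 0.05. The PLAUR effect was larger in NB4 by 0.59 on the log2 scale (SE 0.19, limma, adjusted p = 0.29, and 0.15 with the block). With the block, THBS1 was called, at 2.11 (SE 0.26, limma, adjusted p = 0.0074, against 0.64 without), where 1.81% of genes were called higher and 0.114% lower. Without the filter on low values the blocked call was lost (adjusted p = 0.055). THBS1 was too low in Kasumi-1 to be tested there, so this difference restates the NB4 change and does not show that the lines respond differently. The PLAU effects, 0.41 in NB4 and 0.33 in Kasumi-1, differed by 0.07 (SE 0.14, limma, adjusted p = 0.86), and the sign of that difference turned under TPM scaling, median centring and quantile normalization.

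The patterns closest to the other genes of the set, by the same measure, were SNX20, CKAP4 and THBS1 for ANXA2 (all at r = 0.98), CYBB (0.96), TM2D3 (0.93) and THEM4 (0.93) for S100A10, KSR1, SS18 and ZNF319 for PLAU (all at 0.97), ENC1 (0.96), ATN1 (0.95) and WNK1 (0.95) for PLAUR, COQ5 (0.93), CSKMT (0.91) and UCHL1 (0.90) for F3, and DDX19A (0.94), ELOF1 (0.90) and SEC13 (0.87) for THBD. These values of r are descriptions over 12 samples that share libraries, treatment and sample numbers. For S100A10, CYBB, which encodes a subunit of the phagocyte oxidase, was at 46.7, 35.0 and 38.5 FPKM in NB4 controls and 68.3, 47.9 and 71.7 FPKM with OGP46. Both genes were also at their highest Kasumi-1 value in control 2, S100A10 at 0.451 FPKM and CYBB at 0.982 FPKM. On the log2 scale such low Kasumi-1 values weigh on r for S100A10 and THBD, so these values of r do not rest on NB4 alone.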

How the data were processed

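Poly(A) mRNA of 12 samples was sequenced after stranded library preparation. The authors deposited 1 FPKM value per gene symbol and sample, 20030 rows each. The submitters' processing notes name Trimmomatic, HISAT2, Cufflinks, HTSeq and the build hg38, without versions or roles, and whether counting used strand is not given in the sources used here. The 27 symbols turned into dates were left out.

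From the deposited FPKM, log2(FPKM + 0.1) was compared with limma 3.58.1 in R 4.3.3 (empirical Bayes with a trend, Benjamini-Hochberg over every gene that averaged 0.1 FPKM or more in the fitted samples). A call needed an adjusted p below 0.05 and, except for the interaction, a log2 difference of at least 0.58 in size. Fold changes on this scale understate the change of low genes. The 0.1 was the pseudocount, and the tests were tried on simulated data. Groups came from the sample titles.

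Deviations from the group means were correlated between samples to see if equal numbers mark pairs. The same-number correlations were 0.35, 0.62 and 0.20 in NB4 (11750 genes) and 0.22, 0.16 and 0.40 in Kasumi-1 (11835 genes), all over 0.1, which was the rule for treating equal numbers as pairs. Some different numbers also passed 0.1 (0.22 and 0.18 between numbers 1 and 3 in NB4, 0.10 for control 1 with OGP46 2 in Kasumi-1). In NB4 the 0.22 exceeded the 0.20 of number 3 with itself. The rule therefore does not single out equal numbers, and the labels do not say what a shared number marks. The replicate block is given where it changes a call. The comparison of lines was not paired.

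Coordinates are from GENCODE release 29 and promoters from RefSeq. The 9 genes and all lists were chosen with earlier results of these data known. The text names all 9 genes with their FPKM, the called genes of each pathway list or else up to 3 of the highest level, and the 3 genes with the nearest pattern for each gene that averaged 1 FPKM or more. A few genes of the lists are not reported here and were left out of the lists' counts. ZNF660-ZNF197 was named after its values were seen. Alternatives were a pseudocount of 1 or 0.01, a filter of 0 or 1 FPKM, quantile normalization, TPM scaling, median centring, the block alone, with a scaling or with no filter, one model of 12 samples, subtraction of signal of the other line, and leaving out each sample.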

Additional observations from a re-analysis of the deposited data

Results flagged for a closer look

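For THBS1, the interaction of line and treatment passed its threshold with the replicate block, with an NB4 effect above the Kasumi-1 effect by 2.11 on the log2 scale (limma, adjusted p = 0.0074) and all 3 NB4 pairs higher. It was not called without pairing (limma, adjusted p = 0.64) or with the block and no filter on low values (adjusted p = 0.055). THBS1 did not exceed 0.0291 FPKM in any Kasumi-1 sample and was too low to be tested there, so the value restates the NB4 change and does not show that the lines respond differently. Groups of 3 samples were not screened for single samples that stand apart.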

How the results depend on the processing

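In NB4, the count of called genes of the set went from 1 to 0 with a pseudocount of 1, no filter, TPM scaling, median centring or quantile normalization, and was 2 with the replicate block alone, with the block after subtraction of signal of the other line, and with the block without pair 1 or pair 3. It was 1 with the block without pair 2, as PLAUR fell to 0.56, and 1 with the block and no filter, where THBS1 was called and PLAUR was not. Leaving out 1 sample without the block gave 0 to 1, and the 1 call, without OGP46 replicate 2, was S100A10 in place of PLAUR. All genes called in NB4 numbered 170 higher and 13 lower, 595 and 135 with the block, 188 and 203 with the block and median centring, 309 and 141 with the block and TPM scaling, 218 and 179 with the block and quantile normalization, 409 and 89 in one model of 12 samples, 4 and 0 without a filter, 111 and 6 with a pseudocount of 1, and 0 and 0 under TPM scaling, median centring or quantile normalization without the block. In Kasumi-1, 1 gene of the set was called with the block without pair 3. For the interaction, 1 gene (THBS1) was called in place of 0 with the block, alone or with median centring, TPM scaling or quantile normalization, and 0 with the block and no filter. Between the lines, the log2 differences of genes near 0 in Kasumi-1 moved with the pseudocount. With 1 and with 0.01 they were 5.28 and 8.34 for S100A10, 2.42 and 6.37 for THBD, and 1.35 and 5.72 for THBS1. Genes called lower in NB4 went from 2 to 1 at a minimum of 1 FPKM, as TFPI was no longer tested. Without NB4 control 2 the genes called higher numbered 6, with ANXA2 and PLAUR added. The numbers did not pair samples across lines (correlations of -0.0487, 0.0176 and -0.00475), and the block changed no call of the set there, with 4 higher and 2 lower. The sign turned for F3 in NB4 (-0.0485 with median centring and -0.0143 with quantile normalization, with and without the block), for THBD in NB4 (-0.29 to 0.0420 on leaving out 1 sample), for the F3 and THBD interactions with a pseudocount of 1 (0.0501 and -0.0184), for the F3 interaction on leaving out 1 sample (-0.30 to 0.13), and for the PLAU interaction with TPM scaling (-0.0699), median centring (-0.0763) or quantile normalization (-0.120), with and without the block, and on leaving out 1 sample (-0.0356 to 0.16). The cause was not tested. The block with no filter, with TPM scaling, with quantile normalization, with signal of the other line subtracted and without 1 pair were chosen after seeing the data. With 3 samples per group and unknown depth, values below about 0.1 FPKM, as for SERPINB2 and for THBS1 in Kasumi-1, cannot be ranked.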
